A study of Mus musculus with 16 samples.

Results

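The HoxB cluster genes are a row of homeobox genes on mouse chromosome 11, and 10 of the 19338 genes with an entry kept belonged to it: *Hoxb13*, *Hoxb9*, *Hoxb8*, *Hoxb7*, *Hoxb6*, *Hoxb5*, *Hoxb4*, *Hoxb3*, *Hoxb2* and *Hoxb1*. The members were taken by symbol, with the entry of the highest mean signal for each gene, and no measured difference was used to choose them. All 10 were found, and they are given here in the order in which they lie along the chromosome.

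Nuclear RNA was sequenced from mouse embryonic stem cells (ESCs) without Polycomb repressive complex 1 (PRC1), Polycomb repressive complex 2 (PRC2) or both, with 4 libraries in each of 4 groups. PRC1/2-null cells were Eed-/-;Ring1a-/-;Ring1bfl/fl ESCs treated with 4-hydroxytamoxifen at 800 nM for 72 h, and PRC2-null cells were the same line untreated. PRC1-null cells were Ring1a-/-;Ring1bfl/fl ESCs given the same tamoxifen treatment, and the untreated cells of that line are called wild-type here. All groups, the wild-type one included, therefore lacked *Ring1* (RING1A) and carried floxed alleles of *Rnf2* (RING1B), the other catalytic subunit of PRC1. Tamoxifen was given to both groups without PRC1 and to neither of the others, so the loss of *Rnf2* and tamoxifen itself cannot be told apart. *Eed*, a core subunit of PRC2, had been removed by CRISPR/Cas9 deletion of its exons, followed by isolation of colonies, so the loss of *Eed* and any other feature of the Eed-/- line cannot be told apart. The number of colonies used for RNA was not given in the sources used here.

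Hox genes encode transcription factors that give cells of the embryo their position along the axis from head to tail. In vertebrates the genes of a cluster lie broadly in the order of their domains, with those near *Hoxb1* expressed toward the head and *Hoxb13* toward the tail. In ESCs the clusters are silent and are textbook targets of Polycomb complexes. PRC2 methylates lysine 27 of histone H3 and PRC1 ubiquitylates histone H2A, and both marks go with repressed promoters.

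The cluster ran from 96194316 to 96368254 on chromosome 11 of mm10, over 173.9 kb, with all members on the plus strand. *Hoxb13* lay alone at the low end, and the other members were packed between the start of *Hoxb9* at 96271330 and the end of *Hoxb1*. In the RefSeq annotation the gene span of *Hoxb3*, 40830 bp, contains *Hoxb4*. The transcript of the *Hoxb3* entry used here starts at 96323326, beyond the end of *Hoxb4* at 96321638. The noncoding gene *Hoxb5os* covers *Hoxb6* and *Hoxb5*, and *Hoxb3os* covers parts of *Hoxb3* and *Hoxb2*. Whether reads were counted by strand was not given in the sources used here, so reads of members and of these noncoding genes may have been shared.

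RefSeq promoter sequences (GRCm38.p6, the assembly of mm10) were matched to 3 of the 10 members, namely *Hoxb8*, *Hoxb4* and *Hoxb1*. They are shown because *Hoxb4* and *Hoxb8* were called higher in every null group and *Hoxb1* in none. Each is the plus strand over the 250 bases before the start site of the promoter table, at chr11:96281655-96281904 for *Hoxb8*, chr11:96318017-96318266 for *Hoxb4* and chr11:96365508-96365757 for *Hoxb1*. For *Hoxb1* the window runs past the gene start of 96365746, and for *Hoxb8* the RefSeq gene span begins upstream of it, at 96279401. Capitals mark matches, on either strand, to 5 motifs that are spelled out after the sequences.
Hoxb8: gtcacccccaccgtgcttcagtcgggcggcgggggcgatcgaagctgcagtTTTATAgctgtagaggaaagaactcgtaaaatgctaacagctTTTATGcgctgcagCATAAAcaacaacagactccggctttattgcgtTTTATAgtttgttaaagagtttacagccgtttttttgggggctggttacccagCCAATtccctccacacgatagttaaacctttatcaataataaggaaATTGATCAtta
Hoxb4: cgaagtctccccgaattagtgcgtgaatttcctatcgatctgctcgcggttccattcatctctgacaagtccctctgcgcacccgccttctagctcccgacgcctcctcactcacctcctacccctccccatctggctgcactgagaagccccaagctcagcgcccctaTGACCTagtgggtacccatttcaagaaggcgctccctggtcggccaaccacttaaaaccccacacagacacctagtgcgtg
Hoxb1: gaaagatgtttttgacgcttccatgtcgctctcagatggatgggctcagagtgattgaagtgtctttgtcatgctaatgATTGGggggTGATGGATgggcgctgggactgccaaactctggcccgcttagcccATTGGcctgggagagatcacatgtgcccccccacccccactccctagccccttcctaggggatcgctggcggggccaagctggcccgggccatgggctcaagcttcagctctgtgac

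The promoter of *Hoxb4* held 14 CpG dinucleotides and that of *Hoxb8* 12, while that of *Hoxb1* held 7, against a median of 6 over all 32851 windows of this length. Relative to the number that base composition would give, the ratio was 0.76 for *Hoxb4*, 0.97 for *Hoxb8* and 0.32 for *Hoxb1*, against a median of 0.37. The GC content was 58.0%, 44.4% and 59.2% for *Hoxb4*, *Hoxb8* and *Hoxb1*. The *Hoxb8* window held 2 matches to TTTATG, the CDX type motif, at -157 to -152 and -143 to -138 from the start, and 10.8% of all windows held at least 1. It also held 2 matches to TATAAA, the TATA box, present in 12.4% of windows, and 1 to CCAAT, the NF-Y motif, present in 33.8%. A match to TGATNNAT, the PBX-HOX type motif in which N is any base, present in 7.7% of all windows, was found in *Hoxb8* at -11 to -4 and in *Hoxb1* at -162 to -155. *Hoxb1* held 2 further matches, both to CCAAT, and the single match in *Hoxb4* was to AGGTCA, a nuclear receptor motif that 14.0% of windows held. No matches in these 3 windows overlapped each other, and binding of any factor was not measured.

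The deposited tables give each gene's mean normalized count over all 16 libraries and its log2 fold change in each null group, with no value per library, so neither the spread between libraries nor their overlap can be shown. Group means were therefore implied from the overall mean and the unshrunken fold changes, so they are approximations for which no error can be given. Fold changes are the moderated log2 values, which are drawn toward 0 most strongly in genes with few reads, with their standard error (SE). The thresholds for a call were those of the study, an adjusted p below 0.05 with a fold change above 2.

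In wild-type ESCs the HoxB genes were close to silent, with the exception of *Hoxb9*, a gene of rib and thoracic patterning. Implied means over the 10 genes summed to 539.5 in PRC1/2-null cells, 284.3 in PRC2-null cells and 277.4 in PRC1-null cells, against 64.12 in wild-type cells. *Hoxb9* alone made up 45.07 of the wild-type sum. In wild-type cells *Hoxb6*, *Hoxb5* and *Hoxb2* had almost equal implied means of 0.311, 0.311 and 0.310, below 1 normalized count. From the moderated fold changes the same means were 1.547, 1.233 and 1.412, so they are poorly determined and their fold changes rest on very few wild-type reads. The highest implied mean was in PRC1/2-null cells for 7 of the genes and in PRC1-null cells for *Hoxb3*, *Hoxb2* and *Hoxb1*.

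The posterior members had their highest implied mean in PRC1/2-null cells. *Hoxb9* had an implied mean of 202.4 normalized counts in PRC1/2-null cells, 119.8 in PRC2-null cells and 72.14 in PRC1-null cells, against 45.07 in wild-type cells. *Hoxb13*, a gene of the tail bud and of the prostate, had 93.68 in PRC1/2-null cells, 45.59 in PRC2-null cells and 31.33 in PRC1-null cells, against 5.264 in wild-type cells. *Hoxb8*, which acts in the spinal cord and in blood cell precursors, had 32.58 in PRC1/2-null cells, 11.51 in PRC2-null cells and 10.64 in PRC1-null cells, against 1.697 in wild-type cells. The values of *Hoxb8* in PRC2-null and PRC1-null cells are close, and their log2 difference of 0.10 (adjusted p = 0.94) became -0.35 with chromosome 11 lowered, so they have no set order.

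In *Hoxb7*, *Hoxb6* and *Hoxb5* the implied mean of PRC1-null cells lay above that of PRC2-null cells. Without lowering chromosome 11 none of these differences was called. PRC2-null minus PRC1-null was -1.14, -0.52 and -0.73 on the log2 scale (Wald test, adjusted p = 0.132, 0.704 and 0.6). In *Hoxb8* and *Hoxb4*, on either side of these genes, the PRC2-null mean was the higher one, but neither difference was called. For *Hoxb4* the difference was 0.39 (adjusted p = 0.679) and became -0.07 with chromosome 11 lowered. These values thus set no pattern along the cluster. *Hoxb7*, expressed in the mesonephric duct among other trunk tissues, had an implied mean of 47.95 in PRC1/2-null cells, 15.69 in PRC2-null cells and 36.36 in PRC1-null cells, against 3.329 in wild-type cells. *Hoxb6*, a gene of trunk mesoderm, had 23.02 in PRC1/2-null cells, 3.719 in PRC2-null cells and 5.981 in PRC1-null cells, against 0.311 in wild-type cells. *Hoxb5*, expressed in the gut wall and neural crest, had 9.924 in PRC1/2-null cells, 1.303 in PRC2-null cells and 3.025 in PRC1-null cells, against 0.311 in wild-type cells. For *Hoxb6* and *Hoxb5* the PRC1/2-null mean was the highest, but only the difference of *Hoxb6* from PRC2-null cells was called. From PRC1-null cells the log2 difference was 1.66 (SE 0.83, adjusted p = 0.0929) for *Hoxb6* and 1.32 (SE 0.89, adjusted p = 0.234) for *Hoxb5*.

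Among the anterior members the order of the groups varied. *Hoxb4*, known for the expansion of blood stem cells, had an implied mean of 73.95 in PRC1/2-null cells, 55.36 in PRC2-null cells and 41.64 in PRC1-null cells, against 2.879 in wild-type cells. *Hoxb3*, a gene of the hindbrain, had 49.29 in PRC1/2-null cells, 27.33 in PRC2-null cells and 53.69 in PRC1-null cells, against 3.852 in wild-type cells. *Hoxb2*, which acts in hindbrain segments, had 5.199 in PRC1/2-null cells, 2.991 in PRC2-null cells and 19.97 in PRC1-null cells, against 0.310 in wild-type cells. *Hoxb1*, which sets the identity of one hindbrain segment, had 1.495 in PRC1/2-null cells, 0.964 in PRC2-null cells and 2.66 in PRC1-null cells, against 1.094 in wild-type cells. In *Hoxb2* and *Hoxb1* the PRC1-null mean was thus the highest of the 4 groups.

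**Figure D1:**
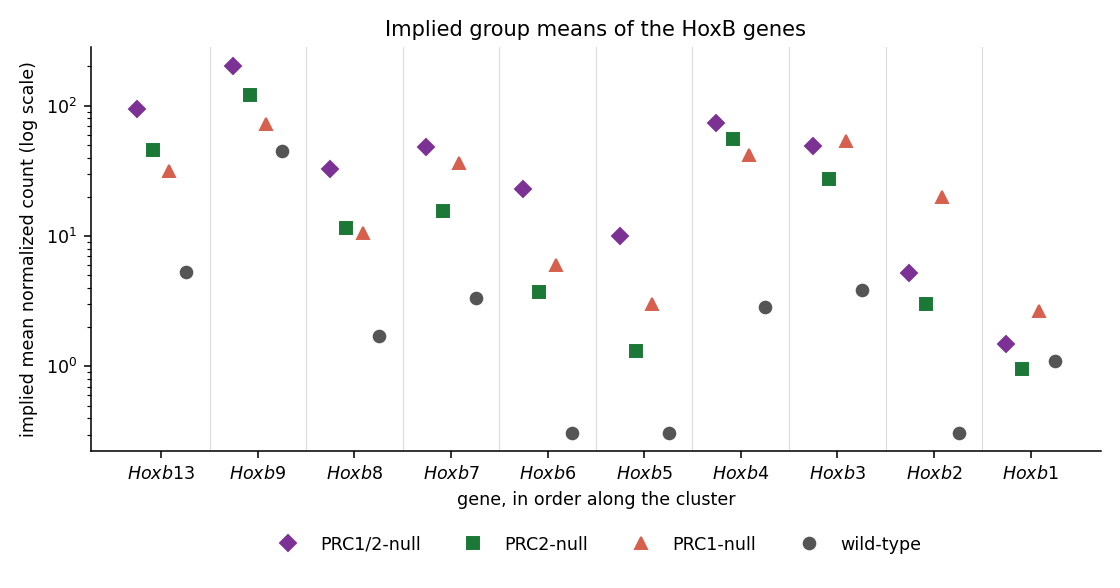
Implied mean normalized count (log scale) of each HoxB gene in PRC1/2-null (diamonds), PRC2-null (squares), PRC1-null (triangles) and wild-type (circles) ESCs, with genes in order along the cluster and no error available. Wild-type means lie under 6 except for *Hoxb9* at 45.07, and the PRC1-null mean is highest for *Hoxb3*, *Hoxb2* and *Hoxb1*.

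Divided by exon length, the implied means in PRC1/2-null cells kept *Hoxb9* first at 78.6 normalized counts per kb of exon, followed by *Hoxb13* at 42.5, *Hoxb7* at 37.1 and *Hoxb4* at 28.8. *Hoxb6* had 17.4, *Hoxb3* 15.5 and *Hoxb8* 12.4 per kb, and the lowest levels per kb were those of *Hoxb5* at 5.24, *Hoxb2* at 3.19 and *Hoxb1* at 0.717. In wild-type cells *Hoxb9* had 17.5 per kb of exon and the next gene, *Hoxb7*, 2.58. Whether reads were counted over exons or whole genes was not given, and the order depends on this choice. Per kb of transcript span, *Hoxb9* stayed first in PRC1/2-null cells at 39.4. There *Hoxb4*, at 21.9, passed *Hoxb7*, at 13.5, and *Hoxb3* fell to 2.00. In wild-type cells the next gene after *Hoxb9* was then *Hoxb13* at 1.68, with *Hoxb7* at 0.940. Since the implied means carry no error, whether neighbours in these orders differ beyond their spread could not be tested.

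In PRC1-null cells, 7 of the 9 members with an adjusted p were called higher and none lower. Over all 17445 entries tested, 11.2% were called higher. The median log2 fold change of the 10 members was 2.17, against -0.04 over all entries tested. On the moderated scale the largest rises were those of 3 neighbouring genes, where *Hoxb2* was at 3.66 (SE 0.58, adjusted p = 4.24e-09), *Hoxb3* at 3.25 (SE 0.41, adjusted p = 6.75e-14) and *Hoxb4* at 3.16 (SE 0.41, adjusted p = 6.41e-13). *Hoxb7* rose by 2.95 (SE 0.41, adjusted p = 8.71e-12) and *Hoxb13* by 2.28 (SE 0.34, adjusted p = 4.68e-10). *Hoxb6* was at 2.07 (adjusted p = 0.00258) and *Hoxb8* at 1.94 (adjusted p = 0.00055). *Hoxb9* was at 0.66 (SE 0.19, adjusted p = 0.00199), past the p threshold but under the fold of 2. *Hoxb5* was at 1.40 (SE 0.64, adjusted p = 0.0746), and *Hoxb1*, at 0.47 (SE 0.62), had no adjusted p because of its low mean.

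In PRC2-null cells, 8 of 10 members were called higher and none lower, where 15.6% of all 18588 entries tested were called higher. The median of the members was 1.68, against 0.05 over all entries tested. *Hoxb4* was at 3.54 (SE 0.41, adjusted p = 8.21e-17), *Hoxb13* at 2.80 (SE 0.33, adjusted p = 5.96e-16) and *Hoxb3* at 2.34 (SE 0.42, adjusted p = 9e-08). *Hoxb8* was at 2.04 and *Hoxb7* at 1.81, with adjusted p of 0.000103 and 4.94e-05. *Hoxb9* was at 1.38 (SE 0.18, adjusted p = 8.13e-14). *Hoxb6*, at 1.54 (SE 0.60, adjusted p = 0.0205), and *Hoxb2*, at 1.38 (SE 0.60, adjusted p = 0.0421), passed closest to the p threshold. *Hoxb5* was at 0.67 (SE 0.64, adjusted p = 0.393) and *Hoxb1* at -0.05 (SE 0.62, adjusted p = 0.951). For *Hoxb1* the 95% interval from -1.26 to 1.15 leaves room for a fold of more than 2 in either direction.

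In PRC1/2-null cells, 9 of 10 members were called higher and none lower, where 21.8% of all entries tested were called higher. The median of the members was 3.23, against 0.06 over all entries tested. *Hoxb4* was at 3.94 (SE 0.41, adjusted p = 4.64e-21), *Hoxb13* at 3.81 (SE 0.33, adjusted p = 3.32e-30) and *Hoxb6* at 3.73 (SE 0.58, adjusted p = 4.49e-10). *Hoxb8* was at 3.42, *Hoxb7* at 3.33 and *Hoxb3* at 3.13. *Hoxb5*, which was not called in either singly null group, rose by 2.72 (SE 0.63, adjusted p = 3.31e-05). *Hoxb9* was at 2.13 (SE 0.17, adjusted p = 3.17e-33), the smallest SE of the cluster, and *Hoxb2* at 1.99 (SE 0.60, adjusted p = 0.00164). *Hoxb1* was at 0.14 (SE 0.62, adjusted p = 0.858), and it was the member called in no null group.

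**Figure D2:**
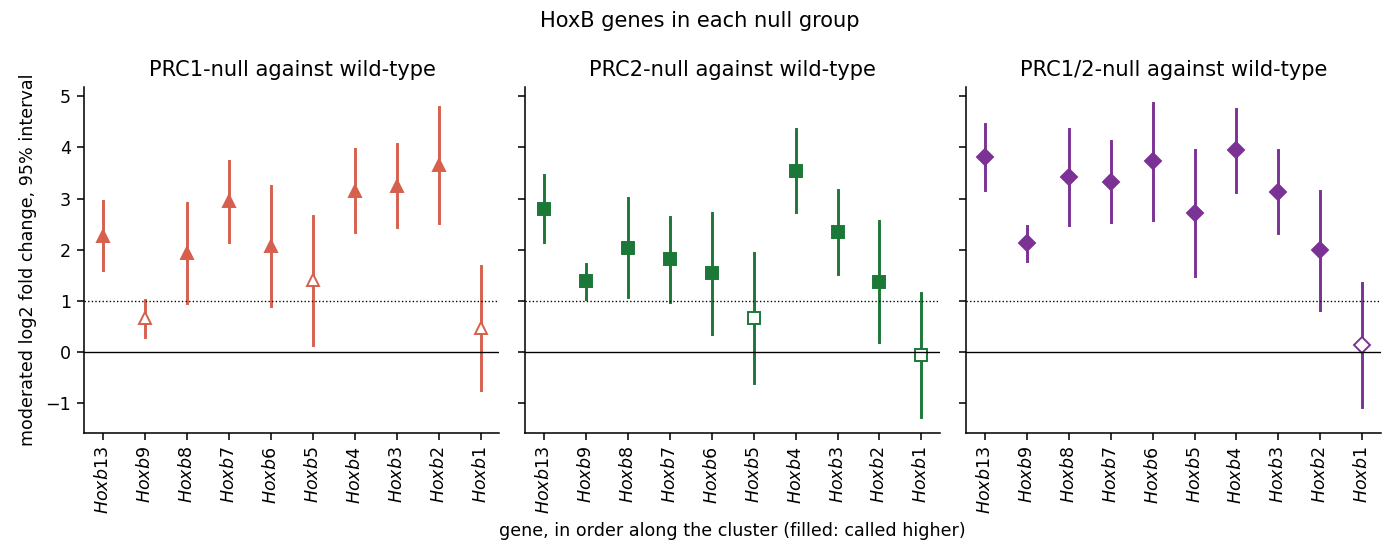
Moderated log2 fold change against wild-type ESCs with its 95% interval for each HoxB gene, with 1 panel for each null group (filled symbols were called higher, the dotted line marks a fold of 2). The largest PRC1-null value is 3.66 at *Hoxb2*, whereas *Hoxb1* at the end of the cluster is at or under 0.47 in all 3 comparisons.

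The low wild-type counts set how much the folds depend on moderation. Unshrunken, *Hoxb6* was at 6.21 in PRC1/2-null cells, 3.58 in PRC2-null cells and 4.27 in PRC1-null cells, and *Hoxb2* at 4.07 in PRC1/2-null cells, 3.27 in PRC2-null cells and 6.01 in PRC1-null cells. The unshrunken PRC1-null value of *Hoxb6* thus lay above those of *Hoxb4* at 3.85 and *Hoxb3* at 3.80, unlike on the moderated scale. For *Hoxb9*, the member with the most reads, the moderated and unshrunken values were 2.13 and 2.17 in PRC1/2-null cells. A further entry of *Hoxb3* (NM_010458), with a mean of 12.31 normalized counts against 33.54 for the entry used (NM_001079869), was called higher in all 3 groups too, at 2.79 in PRC1/2-null cells, 2.59 in PRC2-null cells and 3.05 in PRC1-null cells.

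Expressed genes of chromosome 11 as a whole were higher in both groups of the Eed-/- line. Over the 926 genes of that chromosome with a mean of at least 100, the median log2 fold change was 0.38 in PRC1/2-null cells, 0.38 in PRC2-null cells and -0.07 in PRC1-null cells. This stood above the median of the other chromosomes by 0.51 in PRC1/2-null cells, 0.47 in PRC2-null cells and 0.02 in PRC1-null cells. No other chromosome had a median above 0.05 in any group. Within 5 Mb of the cluster, 119 such genes had medians of 0.48 in PRC1/2-null cells, 0.45 in PRC2-null cells and -0.04 in PRC1-null cells. With the fold changes of chromosome 11 lowered by its excess, the count of members called higher stayed at 9 in PRC1/2-null and 7 in PRC1-null cells and fell to 5 in PRC2-null cells. The calls of *Hoxb9*, *Hoxb6* and *Hoxb2*, then at 0.91, 1.08 and 0.91, ended there, and those of *Hoxb13*, *Hoxb8*, *Hoxb7*, *Hoxb4* and *Hoxb3* held.

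**Figure D3:**
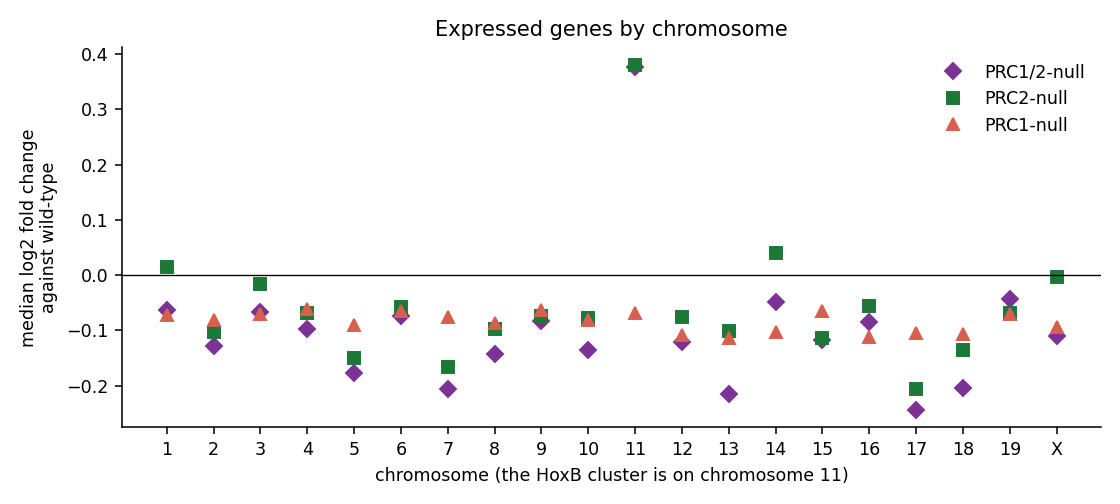
Median log2 fold change against wild-type ESCs of expressed genes (mean of at least 100 normalized counts) on each chromosome, in PRC1/2-null (diamonds), PRC2-null (squares) and PRC1-null (triangles) cells. Chromosome 11, which carries the HoxB cluster, is at 0.38 in both groups of the Eed-/- line and at -0.07 in PRC1-null cells.

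Only some of the other genes in and around the cluster were called with it. There were 11 other entries inside it or within 200 kb of its outer ends, of which 9 were tested in PRC1-null cells. The PRC1/2-null cells had 3 called higher and 1 called lower, the PRC2-null cells also 3 and 1, and the PRC1-null cells 2 and 0. Over all entries tested, 21.8%, 15.6% and 11.2% were called higher and 10.4%, 5.30% and 1.13% lower, in the same order. Whether the counts differ from these shares was not tested. *Skap1*, an adaptor gene of immune cells that starts 96.3 kb beyond *Hoxb1*, was at 1.91 in PRC1/2-null cells, 1.24 in PRC2-null cells and 1.71 in PRC1-null cells. *Gm11538*, a noncoding gene between *Hoxb13* and *Hoxb9*, was at 1.56 in PRC1/2-null cells, 1.28 in PRC2-null cells and 1.62 in PRC1-null cells, and was called in all 3 groups as well. With chromosome 11 lowered, an alternative chosen after seeing the data, the PRC2-null values became 0.78 for *Skap1* and 0.82 for *Gm11538*, under the fold of 2, and the count called higher in PRC2-null cells fell to 1. *Calcoco2*, an autophagy receptor gene 69.8 kb from *Hoxb13*, was at 2.97 in PRC1/2-null and 2.82 in PRC2-null cells, where it was called, and at 0.92 (adjusted p = 0.0397, fold under 2) in PRC1-null cells. *Ttll6*, a tubulin-modifying enzyme gene 28.1 kb beyond *Hoxb13*, had -1.79 in PRC1/2-null cells and -1.07 in PRC2-null cells, where it was called lower, and 0.00 in PRC1-null cells. *Gm53*, a noncoding gene next to *Hoxb9* at an implied 390 normalized counts in wild-type cells, was at 0.77 in PRC1/2-null cells, 0.58 in PRC2-null cells and 0.75 in PRC1-null cells and was not called in any group.

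**Figure D4:**
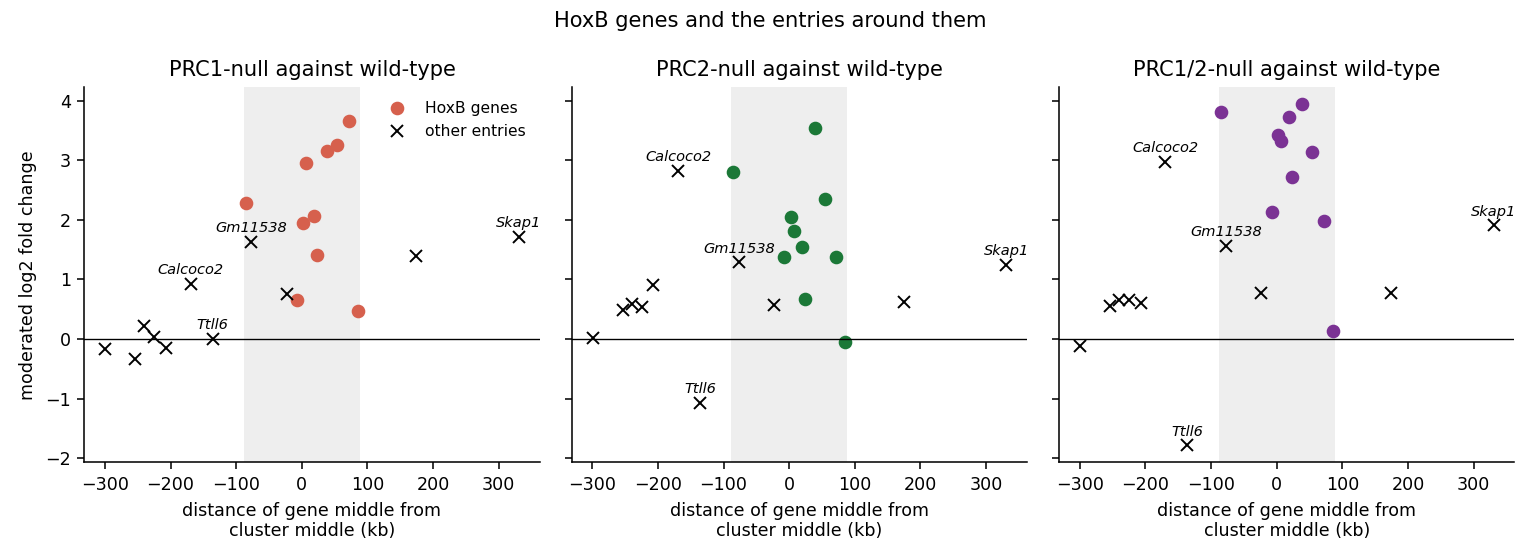
Moderated log2 fold change against wild-type ESCs of the HoxB genes (filled circles) and of the 11 other entries within 200 kb (crosses), by distance of the gene's middle from the middle of the cluster (shaded, 173.9 kb). *Calcoco2* and *Ttll6* stand apart in both groups of the Eed-/- line, at 2.97 and -1.79 in PRC1/2-null cells and at 2.82 and -1.07 in PRC2-null cells.

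Differences between the null groups were tested as the difference of the moderated log2 fold changes with a two-sided Wald test, adjusted over all entries by Benjamini-Hochberg. The groups share their wild-type libraries, whose variance is counted in both terms, so the standard errors are wide. Removal of PRC1 by tamoxifen from cells that already lacked PRC2 was assessed as PRC1/2-null minus PRC2-null, which includes any effect of tamoxifen itself. All 10 differences were above 0, with a median of 0.90, and *Hoxb6*, at 2.18 (SE 0.84, adjusted p = 0.046), and *Hoxb7*, at 1.52 (SE 0.58, adjusted p = 0.0464), were called higher. Over all entries 5.33% were called higher in this difference. Both adjusted p lay close to the threshold, and lowering chromosome 11 left the values at 2.14 (adjusted p = 0.0514) for *Hoxb6* and 1.47 (adjusted p = 0.0544) for *Hoxb7*, no longer called. *Hoxb5* had a difference of 2.05 (SE 0.90, adjusted p = 0.0918) and *Hoxb9* of 0.75 (SE 0.25, adjusted p = 0.0183, fold under 2).

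Absence of *Eed* in cells that also lost PRC1 was assessed as PRC1/2-null minus PRC1-null. *Hoxb13*, at 1.53 (SE 0.47, adjusted p = 0.00397), and *Hoxb9*, at 1.47 (SE 0.26, adjusted p = 9.22e-08), were called higher out of 9 members tested. Over all entries 12.0% were called higher and 18.2% in either direction. With chromosome 11 lowered, *Hoxb13* was at 1.04 (adjusted p = 0.0632) and *Hoxb9* at 0.97 (fold under 2), no longer called, and *Hoxb2* was called lower at -2.17 (adjusted p = 0.0239). In the fold changes as deposited, *Hoxb2* had a difference of -1.67 (SE 0.83, adjusted p = 0.0901) and *Hoxb3* of -0.12 (95% interval from -1.25 to 1.02).

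Between the singly null groups only *Hoxb2* was called, at -2.28 (SE 0.84, adjusted p = 0.0257) for PRC2-null minus PRC1-null. Over all entries 4.65% were called lower and 10.9% in either direction, so 1 of 9 members tested is near the latter share. *Hoxb2* had an overall mean of 7.12 normalized counts, and its call rests on few reads. *Hoxb7* had -1.14 (SE 0.58, adjusted p = 0.132), which became -1.59 (adjusted p = 0.0271) and was called lower with chromosome 11 lowered, and *Hoxb3* -0.91 (SE 0.58, adjusted p = 0.251). At the other end *Hoxb9* had 0.72 (SE 0.26, adjusted p = 0.0215, fold under 2) and *Hoxb13* 0.52 (SE 0.48, adjusted p = 0.449). For *Hoxb4* and *Hoxb8* the differences were 0.39 and 0.10, with 95% intervals from -0.76 to 1.53 and from -1.27 to 1.47.

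Departure from additivity, the log2 fold change of PRC1/2-null cells minus the sum of those of the singly null groups, was called lower in 3 neighbouring members of 9 tested. *Hoxb4* was at -2.76 (SE 0.71, adjusted p = 0.00314), *Hoxb3* at -2.46 (SE 0.71, adjusted p = 0.0119) and *Hoxb2* at -3.05 (SE 1.03, adjusted p = 0.0398), where 3.76% of all entries were called lower. The combined loss thus raised these genes by less than the sum of both single losses on the log2 scale. *Hoxb9* was near 0, at 0.09 (95% interval from -0.52 to 0.70). *Hoxb6* was at 0.12, with a wide 95% interval from -1.89 to 2.13. *Hoxb5* was at 0.65 (SE 1.10, adjusted p = 0.848) and *Hoxb7* at -1.43 (SE 0.71, adjusted p = 0.248). Moderated values need not add in genes with few reads, and the departure was not tested on unshrunken values. Unshrunken, the PRC1/2-null value of *Hoxb6*, 6.21, lay below the sum of its single losses, 3.58 and 4.27. That of *Hoxb5*, 5.00, also lay below the sum of 2.07 and 3.28, so neither gene can be called additive.

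**Figure D5:**
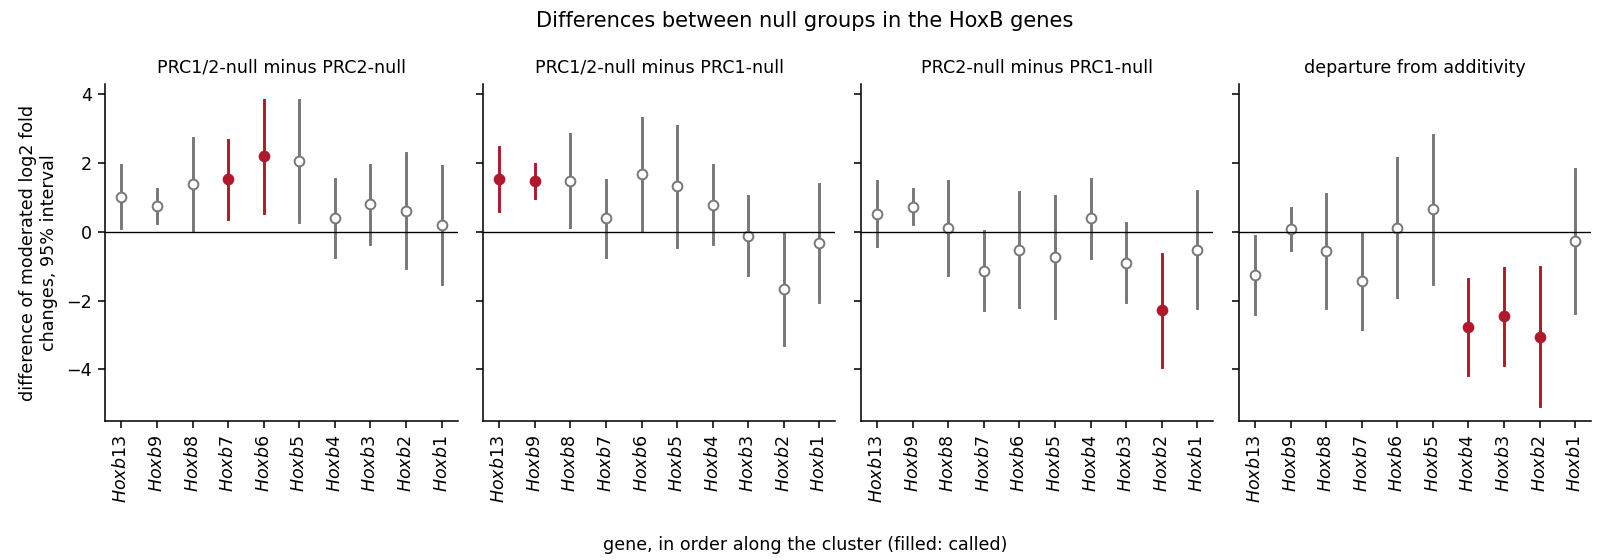
Differences between null groups in the moderated log2 fold change of each HoxB gene, with 95% intervals (filled symbols were called at an adjusted p under 0.05 and a difference over 1). The calls lie at *Hoxb7* and *Hoxb6*, at *Hoxb13* and *Hoxb9*, at *Hoxb2*, and, for the departure from additivity, at *Hoxb4*, *Hoxb3* and *Hoxb2*.

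The other Hox clusters lie on other chromosomes and showed rises too. In PRC1/2-null cells 11 of 11 HoxA, 9 of 9 HoxC and 9 of 9 HoxD genes were called higher, in PRC2-null cells 7 HoxA, 8 HoxC and 8 HoxD genes, and in PRC1-null cells all 11, 9 and 9 of them. The HoxB genes had a median of 3.23 in PRC1/2-null cells, against 2.88 for HoxA, 3.07 for HoxC and 4.01 for HoxD genes. In PRC2-null cells the median was 1.68 for HoxB, against 1.38 for HoxA, 2.37 for HoxC and 2.76 for HoxD genes, and in PRC1-null cells, over the members tested, 2.28 for HoxB, against 3.23 for HoxA, 2.93 for HoxC and 4.07 for HoxD genes. The HoxB medians contain the excess of chromosome 11, and lowered by it they were 2.72 in PRC1/2-null cells and 1.21 in PRC2-null cells, below those of the 3 other clusters.

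*Hoxb1*, *Hoxb5* and *Hoxb9* were each uncalled in at least 1 null group, and their paralogues, the copies at the same place in the other clusters, were mostly called. *Hoxd1* was called in all 3 groups, at 3.36 in PRC1/2-null cells, 2.35 in PRC2-null cells and 2.66 in PRC1-null cells, whereas *Hoxb1* was at 0.14 in PRC1/2-null cells, -0.05 in PRC2-null cells and 0.47 in PRC1-null cells. *Hoxa5*, a paralogue of *Hoxb5*, was called in every null group, at 3.00 in PRC1/2-null cells, 1.36 in PRC2-null cells and 3.25 in PRC1-null cells. *Hoxc5* was likewise called at 3.07 in PRC1/2-null cells, 2.37 in PRC2-null cells and 2.93 in PRC1-null cells. Among the paralogues of *Hoxb9*, which was at 0.66 in PRC1-null cells, *Hoxa9* was at 3.19, *Hoxc9* at 3.72 and *Hoxd9* at 4.62 in that group. Their implied wild-type means of 3.25, 3.50 and 0.984 were lower than the 45.07 of *Hoxb9*.

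Regulators and partners of Hox genes moved in part. Of 34 genes on this list, 14 were called higher and 4 lower in PRC1/2-null cells (median 0.51), 11 higher and 3 lower in PRC2-null cells (median 0.04), and 13 higher and 0 lower in PRC1-null cells (median 0.48). Of all entries tested, 21.8%, 15.6% and 11.2% were called higher and 10.4%, 5.30% and 1.13% lower, in the same order of groups. *Cdx2*, a caudal-type activator of trunk Hox genes, was at 4.93 in PRC1/2-null cells, 3.16 in PRC2-null cells and 2.15 in PRC1-null cells. *Aldh1a2*, which makes retinoic acid, a known inducer of anterior *Hoxb* genes, was at 3.35 in PRC1/2-null cells, 1.62 in PRC2-null cells and 2.27 in PRC1-null cells. *Meis2*, a Hox cofactor, was at 3.25 in PRC1/2-null cells, 4.02 in PRC2-null cells and 4.07 in PRC1-null cells.

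By the size of the 3 log2 fold changes considered jointly, the genes most like the HoxB median among 14459 were *Lrrc4b*, *Alox15*, *Rtn4rl1*, *Slc24a2* and *Aldh1a2*. Their distances from it over the 3 comparisons were 0.090, 0.095, 0.100, 0.109 and 0.163 log2 units. *Alox15* and *Rtn4rl1* also lie on chromosome 11.

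*Eed* checked the labels of the Eed-/- line, with a log2 fold change of -2.10 in PRC1/2-null cells, -1.89 in PRC2-null cells and 0.03 in PRC1-null cells, while *Rnf2* was at -0.50 in PRC1/2-null cells, -0.26 in PRC2-null cells and -0.41 in PRC1-null cells. Floxed exons may still leave *Rnf2* reads elsewhere in the gene, so that value checks the tamoxifen treatment weakly. *Ring1*, deleted in all groups, was at an implied 11.70 normalized counts in PRC1-null cells, where it was called lower (-1.13, SE 0.44, adjusted p = 0.0333), against 28.75 in wild-type cells. The ESC label was checked on 9 markers, of which 9 were called lower in PRC1/2-null cells, 2 in PRC2-null cells and 0 in PRC1-null cells. Over all entries tested, 10.4%, 5.30% and 1.13% were called lower in these groups and 21.8%, 15.6% and 11.2% higher. The implied means of the 9 markers summed to 11624 in PRC1/2-null cells, 30521 in PRC2-null cells and 41444 in PRC1-null cells, against 50695 in wild-type cells. None of the 9 was at 0, and in PRC1/2-null cells *Pou5f1* had an implied mean of 546 and *Sox2* of 138. Of 7 primitive endoderm markers, 6 were called higher in PRC1/2-null cells (sum 18525), 7 in PRC2-null cells (sum 19135) and 4 in PRC1-null cells (sum 6520), against a sum of 3033 in wild-type cells. Of 6 mesoderm markers, 4 were called higher in PRC1/2-null cells (sum 10653), 3 in PRC2-null cells (sum 6343) and 4 of 5 tested in PRC1-null cells (sum 813.5), against a sum of 211.1 in wild-type cells. *Flt1* alone made up 10422, 6195, 673 and 157 of these sums, in that order. *Tbx6* was called in none of the groups, at 17.4, 12.5 and 25.4 against 24.7. Of 6 trophoblast markers, 5 were called higher in PRC1/2-null cells (sum 3463), 5 in PRC2-null cells (sum 2043) and 4 in PRC1-null cells (sum 908.5), against a sum of 743.8 in wild-type cells. In bulk RNA more cells of a type and more RNA per cell cannot be told apart, and the part of these cell types in the HoxB values was not tested.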

How the data were processed

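Nuclear RNA-seq libraries were directional, depleted of rRNA and sequenced as paired ends. Per the labels and the study's methods, reads were filtered against rRNA with Bowtie2, aligned to mm10 with STAR and compared with DESeq2 on a nonredundant RefSeq gene set of 20633 entries. As the signal, the authors deposited 1 mean of the normalized counts of all 16 libraries for each entry, which did not differ between the 3 tables. The log2 fold changes were deposited in a moderated and an unshrunken form, with the standard error of the moderated one. The authors also deposited the Wald statistic as a score, its p-value and the p-value adjusted by Benjamini-Hochberg. These columns hold comparisons made by the authors, and they were used because the tables hold no other measurement of these genes. They hold no value per library, so the depth per sample is unknown, and no counting interval, SD or paired fit was possible.

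Symbols were assigned to 20560 entries, 20450 of them from RefSeq (GRCm38.p6) and 110 from GENCODE vM21, and the entry with the highest mean was kept per gene. A gene was called at an adjusted p under 0.05 and a moderated fold over 2. Entries without an adjusted p, of which the highest mean was 1.80 in PRC1-null cells, were not tested. The implied wild-type mean was 4 times the mean over all libraries divided by the sum of the unshrunken folds of the 4 groups, wild-type at 1, and it assumes equal groups. Differences between null groups and the departure from additivity were tested two-sided against a normal distribution on moderated values, the squared standard errors being added to give the variance, after a check on simulated data. P-values measure only the spread between the libraries of these lines, stated to be biological replicates. Software was scipy 1.17.1, pandas 2.3.3, numpy 2.4.6 and, for plots, matplotlib 3.10.9, run in Python 3.11.15.

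The members, gene lists and tests were chosen with earlier results of these data known. The genes named were all members, other entries within 200 kb, *Eed*, *Rnf2* and *Ring1*, paralogues of groups 1, 5 and 9, the 5 genes of most like pattern, and examples from the lists, except that some of these genes are not reported here. Of 8 fibroblast markers, 1 of 7 tested was called higher in PRC1/2-null cells, 3 of 7 in PRC2-null cells and 2 of 4 in PRC1-null cells. Of 6 neural markers, 4 were called higher and 1 lower in PRC1/2-null cells, 1 higher and 1 lower in PRC2-null cells, and 2 higher in PRC1-null cells. Alternatives changed the thresholds, the moderation, the filter on low means, the variance, the centring and the level of chromosome 11.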

Additional observations from a re-analysis of the deposited data

Results flagged for a closer look

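The effect of tamoxifen on 3 neighbouring genes differed between the Eed-/- line and the line that carries *Eed*, by the test of the difference itself. This is the departure from additivity given above, read as a difference of tamoxifen effects, and not a second result. The tamoxifen effect in Eed-/- cells minus that in the line with *Eed* was -2.76 for *Hoxb4*, -2.46 for *Hoxb3* and -3.05 for *Hoxb2* on the moderated log2 scale. The effect on *Hoxb4* was 0.40 in Eed-/- cells, against 3.16 in the line with *Eed*. For *Hoxb3* it was 0.79 in Eed-/- cells, against 3.25 in the line with *Eed*, and for *Hoxb2* 0.61 in Eed-/- cells, against 3.66. The implied mean of *Hoxb2* in wild-type cells was 0.310 normalized counts, so its value rests on few wild-type reads. Those of *Hoxb4* and *Hoxb3* were low too, at 2.879 and 3.852, and became 4.711 and 5.507 from moderated folds. The overall mean of *Hoxb2* lies under the alternative minimum of 10 normalized counts, which leaves *Hoxb4* and *Hoxb3* called. Over all entries 3.76% were called lower by the same test.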

How the results depend on the processing

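No paired analysis was possible because the tables hold no value per library, and no replicate could be left out for the same reason. The counts of HoxB genes called against wild-type stayed within 1.5 times of the reported 9 for PRC1/2-null, 8 for PRC2-null and 7 for PRC1-null cells under every alternative, except for 5 in PRC2-null cells with chromosome 11 lowered by its excess. Centring on the median of expressed genes changed none of these counts. A minimum mean of 10 normalized counts left 6 members to test.

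The differences between null groups depended more on the settings. With 0.5 times the variance the calls numbered 5 for PRC1/2-null minus PRC2-null, 5 for PRC1/2-null minus PRC1-null, 2 for PRC2-null minus PRC1-null and 5 for the departure from additivity. With chromosome 11 lowered the first 3 of these gave 0, 1 and 2 calls in that order. With a minimum mean of 10, PRC1/2-null minus PRC2-null had 1 call (*Hoxb7*) and PRC2-null minus PRC1-null had 0, while the departure from additivity had 2. That filter leaves out *Hoxb6*, *Hoxb5*, *Hoxb2* and *Hoxb1*. Without the fold threshold PRC2-null minus PRC1-null had 2. No called value changed its sign. Implied means from moderated instead of unshrunken folds moved 7 of 40 values by more than 1 SE of the gene's log2 fold change, all in wild-type cells. Depth limits *Hoxb6*, *Hoxb5*, *Hoxb2* and *Hoxb1* most, all with overall means under 10.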
